A study of Mus musculus with 12 samples.

Results

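The messenger RNA carried by exosomes of untreated cardiomyocytes was described from 4 control samples of a series of 12. The members are the probes detected, with a p-value under 0.01, on 3 or 4 of the control arrays. They number 302 of 25696 probes, or 1.18% of the array, and represent 261 of 16593 named genes, or 1.57%. No treatment contrast was made. The detection p-value of these same arrays chose the members, so their signal and detection on the control arrays are given as a description without a test. Of the 302 probes, 281 carry a gene name and 21 do not. Of those with a name, 279 belong to protein-coding genes, 1 to the spliceosomal RNA gene Rnu6 and 1 to the transcribed pseudogene Gm6548.

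The exosomes came from HL-1 cells, an established mouse atrial cardiomyocyte line, kept for 23 h in serum-free medium with no growth factor. The other groups, used here only as arrays that did not choose the members, are 4 samples with TGF-β2 at 10 ng/mL and 4 with PDGF-BB at 100 ng/mL, each after 23 h in the same medium. Each sample was the exosome preparation of a separate culture flask, purified by differential centrifugation, filtration and a sucrose gradient, and its RNA was amplified, labelled and read on a MouseRef-8 BeadChip, with 1 array per sample. HL-1 is a single immortalised line without the other cells of the heart, and the arrays of the parental cells were not analysed here. Control samples 2 and 3 lay on chip 1 and control samples 1 and 4 on chip 2.

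Exosomes are small vesicles of endosomal origin that a cell releases when a multivesicular body fuses with the plasma membrane. They carry proteins, lipids and RNA of the cell that made them, and in the heart they are known as a route by which cardiomyocytes pass material to fibroblasts, endothelial cells and each other. Ribosomal protein mRNAs, which recur below, are short and abundant in most cells, and many of them begin with a C followed by a run of pyrimidines, the terminal oligopyrimidine start through which growth signals set their translation.

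The control arrays differed in how many probes they detected. The intensity is the mean signal of the beads of a probe after subtraction of a background, in arbitrary units, and the detection p-value is the share of negative control beads with a higher signal on the same array. Detected probes numbered 463 in control sample 1, 820 in sample 2, 1152 in sample 3 and 527 in sample 4, where 257 probes would pass at this threshold among signals like those of the negative controls. The members detected were 132, 293, 295 and 278 of the 302, in the same order. Their median intensity was 45.6, 224, 228 and 125, lowest in control sample 1. Part of this is fixed by the rule, since 170 of the members were chosen by detection on samples 2 to 4 and not on sample 1. Over all probes control sample 1 was close to sample 4, and of the other probes it detected 331, against 527, 857 and 249 in samples 2 to 4. The median bead standard error of the members was 25.3% of the signal in control sample 1 and 9.59% to 15.1% in the other control samples. The source of the low signal in control sample 1 was not tested. Fewer exosomes in a preparation, less RNA per exosome and poorer labelling or hybridisation cannot be told apart in such bulk samples. Members were detected on all 4 control arrays in 92 cases and on 3 in 210. Among the 210, the missing array was control sample 1 for 170 probes, sample 2 for 9, sample 3 for 7 and sample 4 for 24. The detection p-value on control sample 1 was under 0.05 for 31 of those 170 probes. Of the 25394 other probes, 23808 were detected on no control array, 1208 on 1 and 378 on 2.

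Ribosomal protein genes were the largest class among the brightest members. Signals were ordered within each array, with rank 1 for the brightest probe. Such a rank orders probe signals and not amounts of RNA, because probes bind with different strength. Rpl23, a protein of the large ribosomal subunit, had rank 1 on all 4 arrays, with intensities of 4060, 24776, 9855 and 8157 in control samples 1 to 4. A probe without a gene name followed at rank 2 on all 4 arrays, with 1682, 8905, 8561 and 4785. Both stood in the same place on every array although their intensities varied severalfold.

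Rpl37, also of the large subunit, gave intensities of 313, 4017, 4420 and 2379. Rps20, of the small subunit, gave 559, 6499, 1423 and 1612. Rpl38 gave 595, 4375, 1489 and 1132. In these 3 ribosomal genes control sample 1 was the lowest on each occasion, and the highest was control sample 2 or 3. Rpl41, whose peptide is among the shortest a cell makes, gave 248, 2476, 1875 and 1285. Rps19 of the small subunit gave 114, 2888, 3010 and 1552. Rpl9, Rps27, Rps14, Rplp1 and Rps21 completed the ribosomal genes among the 25 brightest member genes, which were 11 of 25. Ribosomal genes were 15 of the 50 brightest and 18 of the last 100 member genes in this order over 4 arrays. The order rests partly on control sample 1. Ordered by control samples 2 to 4 alone, the 262 probes detected on all of those 3 arrays held 19 ribosomal probes among the first 50, then 4, 11 and 4 in the following groups of 50 and 2 among the last 62, so fewer of them lay at the dim end.

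The other bright members had varied roles. Irgm1, an interferon-inducible GTPase of autophagy and host defence, gave 696, 2975, 3806 and 1345. It was the only member among 10 immunity-related GTPases on the array. Of those 10, 9 were detected on no control array, a share like that of all named genes (14929 of 16593). Wsb2, a SOCS box substrate receptor of a cullin ubiquitin ligase, gave 167, 2806, 3741 and 2142. Lbh, a transcriptional cofactor of limb and heart development, gave 481, 3269, 1239 and 1026. These 3 genes lay above the lowest detected signal on every control array, which was 52.3, 82.4, 74.9 and 66.5.

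Pdp2, which dephosphorylates and so activates mitochondrial pyruvate dehydrogenase, gave 171, 1674, 1707 and 691. Klhdc10, a kelch-domain receptor of a cullin ligase, gave 194, 1712, 1337 and 684. Ptp4a2, a prenylated tyrosine phosphatase, gave 244, 1714, 828 and 780. All 3 were again lowest in control sample 1. Pptc7, a mitochondrial matrix phosphatase, ranged from 143 to 1030, and Cyb5b, the cytochrome b5 of the outer mitochondrial membrane, from 94.6 to 1069. Tuba1b, an alpha tubulin, ranged from 102 to 1664, and Eef1g, a subunit of the elongation factor that recharges eEF1A, from 174 to 1675. Odc1, which makes putrescine for polyamine synthesis, ranged from 122 to 689, and Prkacb, a catalytic subunit of protein kinase A, from 144 to 789.

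**Figure D1:**
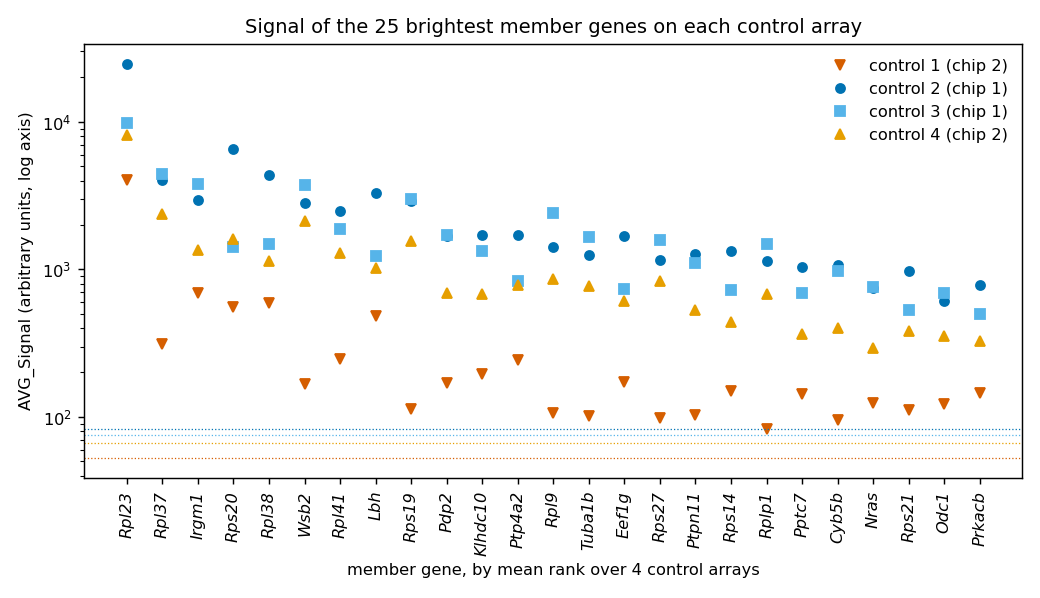
Intensity (AVG_Signal, arbitrary units, log axis) of the brightest probe of the 25 member genes with the best mean rank, 1 point per control array, with dotted lines at the lowest detected signal of each array. Control sample 1 is the lowest point for every gene and Rpl23 the highest for every array.

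By class, the cytosolic ribosome was the group with the largest share of its genes among the members. Of 59 cytosolic ribosomal protein genes on the array, 39 (66.1%) had a member probe, against 1.57% of all named genes. The small subunit had 20 of 24 (83.3%) and the large subunit 19 of 35 (54.3%). Of the 39 genes, 18 were detected on all 4 control arrays. Ribosomal genes detected numbered 18, 43, 43 and 40 in control samples 1 to 4, so control sample 1 held the fewest. The 20 ribosomal genes that were not members were mostly at background: 13 were detected on no control array, 5 on 1 and 2 on 2. Rpl24 and Rpl35 were the genes detected on 2. Rpl24 gave 32.9, 63.2, 142 and 102 and Rpl35 gave 27.4, 93.2, 225 and 56.7. Rpl14 gave between -60.9 and -5.06, below the mean background on every array. The mitochondrial ribosome, encoded by a separate set of nuclear genes, had 0 members among 77 genes. Of these, 68 were detected on no control array, beside 14929 of 16593 named genes, so this class lay near the share of all genes.

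The start sites of the ribosomal members were read from the RefSeq promoter table (GRCm38.p6), which held a window for 221 of the 261 member genes (84.7%). A terminal oligopyrimidine start was counted where a C at the annotated start was followed by 4 bases that are each C or T. It was found in 8 of 34 ribosomal member genes (23.5%), in 4 of 16 ribosomal genes that are not members, in 9 of 187 other member genes (4.81%) and in 2.62% of the genes that are not members. In all 32851 windows of the table the share was 2.51%. A looser count took a run of at least 8 bases that are each C or T anywhere from 15 bases before the start to 15 bases after it, on the gene's own strand. It was found in 13 of 34 ribosomal members (38.2%), 9 of 16 ribosomal non-members (56.3%), 15.5% of the other members, 14.2% of the non-members and 3943 of the 32851 windows. Member and non-member ribosomal genes thus differed little by the strict count, and by the looser count the larger share was on the side of the non-members. Several members with a single annotated start are printed to show how the starts of bright members look with and without such a run. Each is 30 bases, 5′ to 3′ on the gene's strand, the start being base 16, and capitals mark the run of C and T:
Rpl38, chr11:114668565-114668594, plus strand: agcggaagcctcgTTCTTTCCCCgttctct
Rps27, chr3:90213634-90213663, minus strand: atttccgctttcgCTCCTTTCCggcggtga
Fau, chr19:6057932-6057961, plus strand: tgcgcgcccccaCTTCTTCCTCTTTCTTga
Rpl23, chr11:97782425-97782454, minus strand: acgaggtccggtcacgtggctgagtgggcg
Rpl41, chr10:128549154-128549183, minus strand: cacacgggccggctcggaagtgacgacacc
Wsb2, chr5:117357290-117357319, plus strand: cggccgccatgtgacgggaagcagctgatg
Rpl38, Rps27 and Fau, which encodes a ubiquitin-like protein fused to a small-subunit ribosomal protein, hold a run of 10, 9 and 16 bases. Rpl23, the brightest member of all, and Rpl41 hold none in the windows of this table, and neither does Wsb2. The absence of a run says only that these letters are not in the window at the annotated start.

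Base composition differed between the members and the family of sensory receptor genes. The median GC content of the 300-base promoter windows was 57.0% for ribosomal members, 62.0% for other members and 57.3% for genes that are not members. Olfactory, vomeronasal and trace amine receptor genes, which sensory neurons use, had a median of 35.3%. Of these 1208 receptor genes, 2 (0.166%) had a member probe, Olfr639 and Vmn2r81. Olfr639 gave 61.8, 90.4, 127 and 52.5 and Vmn2r81 gave 62.0, 90.8, 101.5 and 44.0. They ranked 206, 620, 333 and 1182 (Olfr639) and 202, 609, 514 and 1976 (Vmn2r81) on the 4 arrays, which placed them within the range of detected probes on control samples 1 to 3, and on sample 4 both were short of detection. The share of receptor genes detected on a single array was 1.99%, 2.32%, 2.57% and 0.662% in control samples 1 to 4, beside 2.57%, 4.41%, 6.07% and 2.81% of all named genes. Control sample 1 had the receptor share closest to its share of all genes. The TATAAA box, searched on the gene's strand from 40 to 11 bases before the start, was found in 0 of 34 ribosomal members, in 2 of 187 other members and in 3.11% of the non-members.

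Translation beyond the ribosome was represented by 5 of 59 initiation and elongation factor genes (8.47%), where 1.57% of all named genes were members. These 5 were Eef1g, Eif4h, Eef1a2, Eif4ebp2 and Eif3f. Eef1a2, the elongation factor form of muscle and neurons, gave 54.0, 261, 139 and 74.7. Eif4ebp2, an inhibitor of cap-dependent initiation, gave 30.4, 376, 1415 and 252, with an SD of 1.95 on the log2 scale over the 4 arrays, where the median of the members was 0.83. Srp9 of the signal recognition particle and Ssr3 of the translocon-associated complex were the members among 22 genes of translocation into the endoplasmic reticulum (9.09%).

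Respiratory complexes II to V had 5 of 45 genes (11.1%): Atp5g3, the membrane c-subunit of ATP synthase, Atp5mpl, a small proteolipid of the same enzyme, the cytochrome oxidase subunits Cox4i1 and Cox8a, and Uqcr10 of complex III. Atp5g3 gave 106, 583, 321 and 378 and was detected on all 4 arrays. Cox8a gave -3.27, 128, 353 and 93.7, detected on all but control sample 1. Complex I had 1 of 39 genes, Ndufc1, with 8.43, 131, 124 and 73.8. Mitochondrial carriers had 0 of 39, and glycolysis, the citric acid cycle and fatty acid oxidation 0 of 50. Both counts lie near the 1.57% of all named genes. Of the 45 genes of complexes II to V, 20 were detected on at least 1 control array, beside 1664 of 16593 named genes. Their share detected on each array was 8.89%, 24.4%, 40% and 13.3% in control samples 1 to 4. For all named genes it was 2.57%, 4.41%, 6.07% and 2.81% in the same order.

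Signalling and cytoskeletal classes had a few members each, where 1.57% of all named genes were members. In the short lists of this paragraph the shares ran from 5.26% (Rab GTPases) to 16% (PDGF, Ras and MAPK signalling). Of 25 genes of PDGF, Ras and MAPK signalling, 4 were members: the tyrosine phosphatase Ptpn11 (SHP2), the GTPase Nras, the PI3-kinase regulatory subunit Pik3r1 and the stress kinase Mapk14 (p38α). Ptpn11 gave 103, 1272, 1104 and 534, and Nras gave 124, 746, 765 and 295. Both were detected on all 4 arrays, with control sample 1 lowest. Of 23 actin, Arp2/3 and actin-binding genes, 3 were members, all of the Arp2/3 complex that nucleates branched actin: Arpc1a, Arpc5 and Actr3. None of these 3 was detected on control sample 1. The actin gene Acta2, a member on all 4 arrays, is not in this list and was counted in other classes. Tubulins had 2 of 22, Tuba1b and Tubb5, and Rab GTPases 3 of 57, Rab28, Rab8b and Rab31. Polyamine and iron genes had 2 of 15, Odc1 and Fth1. Fth1, the ferritin heavy chain that stores iron, was a member by both of its probes, with 82.2, 391, 401 and 293 on the brighter one.

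Chaperones had 3 of 77 genes, Hspa8, Dnajc5 and Bag1, which act together in the Hsc70 cycle. Hspa8, the constitutive Hsc70, gave 53.4, 331, 367 and 172. Cullin ligase receptors had 4 of 154, Wsb2, Klhdc10, Spop and Kctd10, and the first 3 were detected on all 4 arrays. Zinc finger proteins named Zfp had 4 of 280 (1.43%), about the share of all genes. The proteasome had 1 of 43 (Psmb4), ubiquitin-conjugating enzymes and deubiquitinases 1 of 69 (Ube2j2) and solute carriers 1 of 253 (Slc11a1). Cell cycle genes had 2 of 30, both E2F transcription factors: E2f1 gave 67.1, 316, 163 and 156, and E2f2 gave 14.5, 243, 248 and 77.4. The TGF-β pathway and its targets had 1 of 27, Acta2. Spliceosome and hnRNP genes (0 of 69), RNA-binding motif proteins and helicases (0 of 72), histones (0 of 47) and immediate early genes (0 of 23) had none. Counts of 0 in lists of this size lie near the 1.57% of all named genes. In all, 91 of the 261 member genes (34.9%) belonged to at least 1 of the classes, so most members lay outside them.

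**Figure D2:**
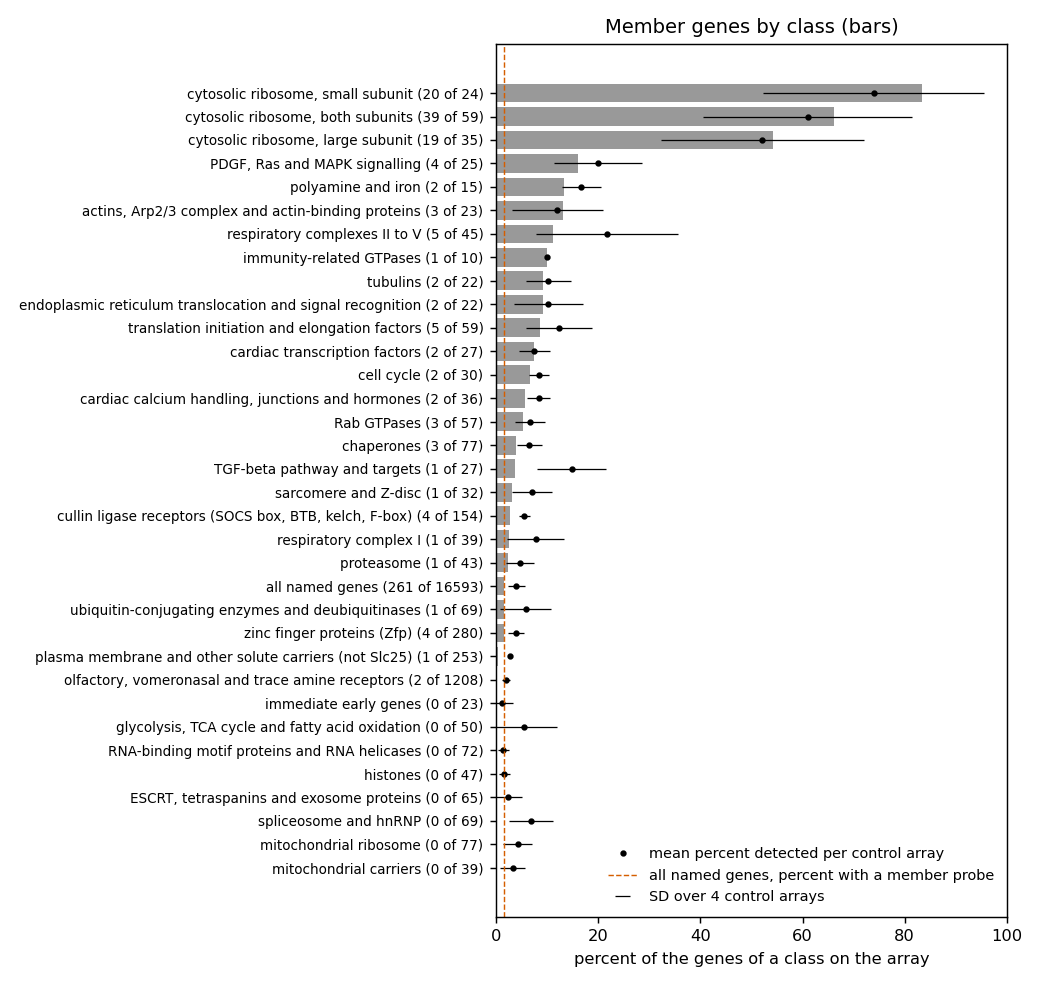
Percent of the genes of each class on the array that had a member probe (bars, with the counts in the labels), and the mean percent detected on a single control array with its SD over 4 arrays (points and lines). The ribosomal bars, 83.3% for the small and 54.3% for the large subunit, stand far to the right of the 1.57% for all named genes (dashed line).

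Of 22 atrial cardiomyocyte markers on the array, 4 (18.2%) were members and 16 were detected on no control array. Among all named genes 1.57% were members, and 14929 of 16593 were detected on no control array. Myl4, the atrial essential myosin light chain, gave 107, 615, 510 and 261 and was detected on all 4 arrays. Atp2a2 (SERCA2), which pumps calcium back into the sarcoplasmic reticulum, gave 59.6, 521, 781 and 340, also on all 4. Myocd, the coactivator of serum response factor in cardiac and smooth muscle, gave 44.7, 462, 574 and 165, and Gja1, the gap junction protein connexin 43, gave 19.8, 198, 83.5 and 70.8. Both were detected on all but control sample 1. Myl7, the atrial regulatory light chain, gave 17.0, 58.7, 157 and 76.3, and the sarcomeric spring Ttn gave 40.6, 119, 164 and 38.9. Myl7 and Ttn were detected on 2 arrays each and so fell short of membership.

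The atrial cardiomyocyte markers that were detected on no control array included Myh6, Nppa, Nppb, Tnni3, Actc1, Ryr2, Pln, Sln, Gata4, Nkx2-5 and Des. Nppa, the atrial natriuretic peptide gene, gave 20.5, 28.1, 19.98 and 21.3. Tnni3, cardiac troponin I, gave -10.7, -16.7, -6.59 and -3.17. These values lay under the lowest detected signal on all 4 arrays, where a probe without detection has only an upper bound. The labelled cardiomyocyte source was therefore represented by 4 of the 22 markers at the threshold used. The summed signal of the 22 markers was 328, 2174, 2467 and 1066 in control samples 1 to 4, lowest in control sample 1. Most of each sum came from the 4 member markers, which the rule chose by detection on these same arrays. Myocd and Gja1 were chosen without control sample 1, which lowers its sum. The sums are a description and are not set against those of other lists.

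Markers of other cell types were at or near background. Fibroblast (15), endothelial (11), leucocyte (14), erythroid (5) and other organ (18) markers had 0 members, where 1.57% of all named genes were members. In lists this short a count of 0 lies near that share and does not set these markers apart from other genes. Endothelial and erythroid markers were detected on no control array, as were 14929 of 16593 named genes. Dcn among fibroblast, Aif1 and Cd14 among leucocyte and Prm1 among other organ markers were each detected on 1 array. The summed signal over the 4 arrays ran from -57.7 to 103 for fibroblast, from -144 to 131 for endothelial, from 55.1 to 130 for leucocyte, from -81.0 to -7.56 for erythroid and from 82.0 to 244 for other organ markers. Smooth muscle had 1 of 9, Acta2, which gave 68.0, 371, 363 and 210 and is also expressed by immature cardiomyocytes, and its other 8 markers were detected on no control array. Of 13 housekeeping genes, Tubb5 was the only member.

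Of the genes named here for proteins by which exosomes are recognised, only Hspa8, described above with the chaperones, was a member. The class of ESCRT, tetraspanin and exosome protein genes, which does not hold Hspa8, had 0 of 65, where 1.57% of all named genes were members. Of the 65, 59 were detected on no control array, beside 14929 of 16593 named genes. The class thus lay near the share of all genes. The tetraspanin gene Cd63 gave 34.1, 41.0, 19.98 and 25.2. Cd9, Cd81, the ESCRT genes Tsg101 and Pdcd6ip (Alix) and the endoplasmic reticulum chaperone gene Hspa5 (GRP78) were likewise detected on no control array. Tsg101 gave -31.1, -34.2, -22.2 and -34.1, among the lowest of these genes. The arrays measured mRNA, and these values do not describe the proteins.

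**Figure D3:**
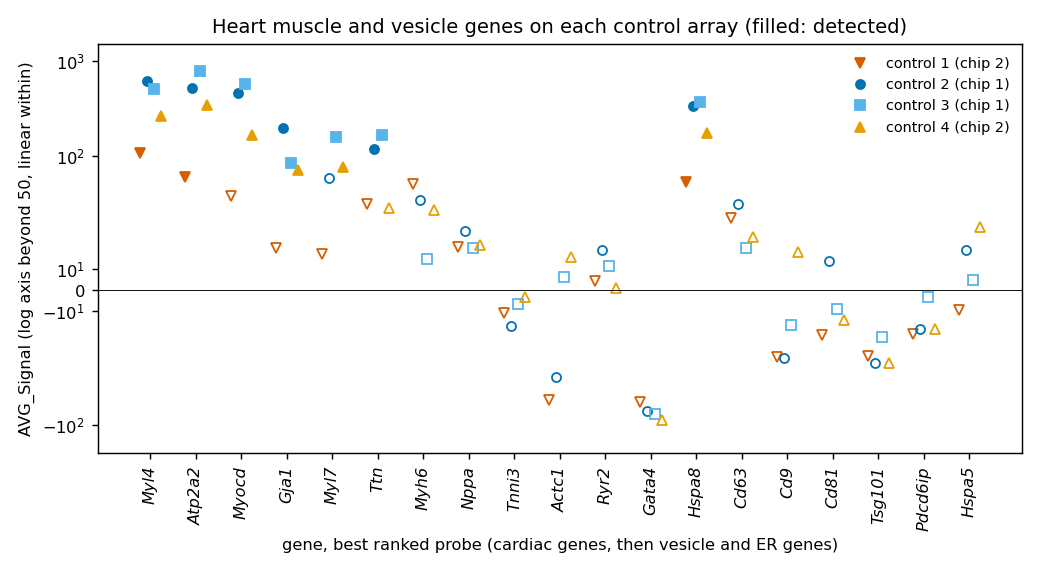
Intensity (AVG_Signal, arbitrary units, log axis beyond 50 and linear within) of 12 heart muscle genes and 7 vesicle or endoplasmic reticulum genes, 1 point per control array, filled where detected at p under 0.01. Myl4, Atp2a2 and Hspa8 are filled on all 4 arrays, and Myh6 to Gata4 and Cd63 to Hspa5 are open on all 4.

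Over the members, the agreement between arrays was lower in each pair with control sample 1. There, the Spearman correlation of intensity was 0.772 between control samples 2 and 3, 0.836 between 2 and 4 and 0.801 between 3 and 4. With control sample 1 it was 0.245 for sample 2, 0.121 for sample 3 and 0.248 for sample 4. Over the 25394 other probes the 6 pairs lay between 0.538 and 0.667, and the highest values, 0.651 for samples 1 and 4 and 0.667 for samples 2 and 3, were those of arrays on the same chip. For the members, pairs on the same chip gave 0.248 and 0.772, and pairs on different chips 0.121 to 0.836. The values with control sample 1 are lowered by the rule as well, because most members were chosen without detection on that array. These correlations run across probes, which are not independent replicates, and every array holds the same probe sequences, so no p-value is given. For the 92 members detected on all 4 arrays, which every array chose alike, the correlation was 0.558 to 0.691 with control sample 1 and 0.891 to 0.926 without it.

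**Figure D4:**
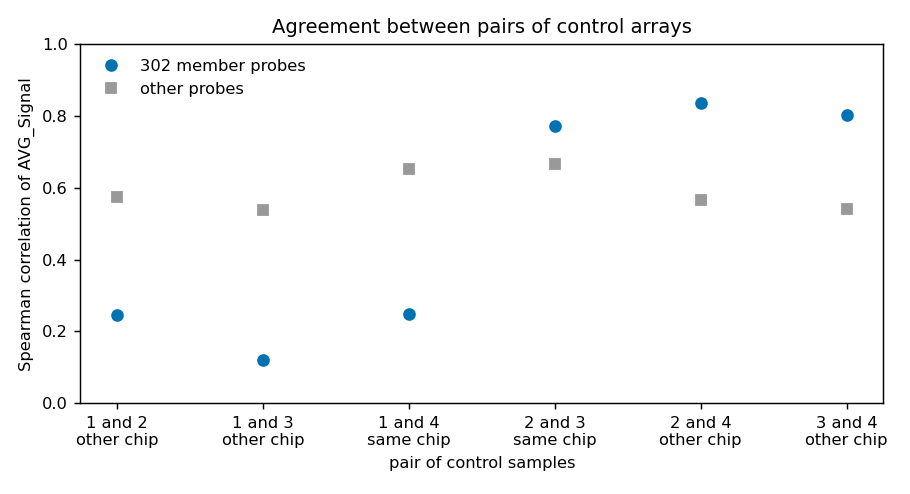
Spearman correlation of intensity for each of the 6 pairs of control samples, over the 302 members (circles) and the 25394 other probes (squares). The 3 pairs with control sample 1 lie at 0.121 to 0.248 for the members, and the other 3 pairs at 0.772 to 0.836.

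Control sample 1 can be set against probes that it did not choose. The probes detected on all of control samples 2 to 4 numbered 262, and 92 of them (35.1%) were detected on control sample 1. The same count for the other arrays was 92 of 101 (91.1%) for control sample 2, 92 of 99 (92.9%) for sample 3 and 92 of 116 (79.3%) for sample 4, over different sets of probes, each chosen by the remaining 3 arrays. Among the 50 brightest of the 262 by mean rank in samples 2 to 4, 40 were detected there, among the next 50 it was 21, and in the following groups of 50 it was 5 and 7. Among the last 62 it was 19. Detection on control sample 1 was thus most frequent among the brightest probes, and did not fall evenly below them.

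After background correction and quantile normalisation, the members had a median log2 intensity of 6.20 and a median SD over the 4 control samples of 0.83, against 4.67 and 0.07 for the other probes. Without control sample 1 the median SD of the members was 0.44 and that of the other probes 0.07. The other probes lay near the floor set by the offset, where log2 differences are compressed. Their small SD therefore cannot be read as closer agreement than that of the members. Members on all 4 arrays had a median SD of 0.59, and those on 3 arrays 0.96. The widest spreads belonged to an unnamed probe (SD 2.10), Rps2 (2.03), Get1 (2.01), Nfib (1.98) and Zcchc9 (1.95). Rps2, of the small subunit, gave 53.2, 502, 1777 and 320, highest in control sample 3. Nfib, a transcription factor, gave 26.8, 449, 1348 and 304. Zcchc9, a zinc knuckle protein, gave 116, 47.5, 80.2 and 138, so for this gene control samples 1 and 4, which share chip 2, were the highest. The narrowest were Rpl23 and the unnamed probe at rank 2, whose SD of 0 is set by quantile normalisation because they had the same rank on every array, a second Rpl23 probe (0.13), Zkscan14 (0.14) and Cdk11b (0.16).

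Probes of the same gene did not always share membership. Of the 261 member genes, 157 had 1 probe on the array and 104 had several, of which 20 had 2 member probes. Of the 148 other probes of these genes, 121 were detected on no control array, 18 on 1 and 9 on 2. The 2 probes of Fth1 had mean ranks of 70.8 and 98.8, and those of Atp2a2 91.8 and 333. Those of Abi2, an actin regulator, had 72 and 5578, so probes of a gene could lie close together or far apart. Ribosomal protein genes have many processed pseudogenes, and signal from such a copy cannot be told apart from that of the gene, so single ribosomal values are uncertain in this respect.

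The members just inside the threshold were dim. Cenpb, Cdk11b and Serpina1c had a third-lowest detection p-value of 0.00877, shared by 8 probes, and Cenpb gave 68.6, 86.2, 63.0 and 106. Just outside, Ipmk, Zeb1 and Cox6a1 had 0.01003, shared by 17 probes, and Cox6a1, a further cytochrome oxidase subunit, gave 42.3, 121, 142 and 65.6. The intensities on both sides overlapped.

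The 8 growth factor arrays did not choose the members and give a separate view of them. On these arrays 235 of the 302 members (77.8%) were detected on at least 4 of 8, against 146 of the 25394 other probes (0.575%). All members were detected on at least 1 of the 8, and 27 on all 8. On the TGF-β2 arrays 67.5%, 93.0%, 94.7% and 63.9% of the members were detected in samples 1 to 4, and on the PDGF-BB arrays 19.9%, 42.4%, 90.7% and 43.4%. The share of other probes lay between 0.642% and 4.80%. At the rule of at least 3 of 4 arrays, 221 members (73.2%) passed on the TGF-β2 arrays and 106 (35.1%) on the PDGF-BB arrays, against 0.449% and 0.0827% of the other probes. The study left out a PDGF-BB sample for poor hybridisation and labelling, without naming it in the sources used here, and all 4 are counted above. With PDGF-BB sample 1, the array with the fewest members, left out, 91 members (30.1%) and 0.0236% of the other probes were detected on all of the remaining 3, and with any other PDGF-BB sample left out it was 34 to 39 members. The 8 arrays differ in how many probes they detect, from 294 to 1506, so these shares are not a contrast between treatments. Members on all 4 control arrays were detected on a median of 7 of the 8, members on 3 arrays on 4, other probes on 2 control arrays on 2, and other probes on 1 control array on 1.

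**Figure D5:**
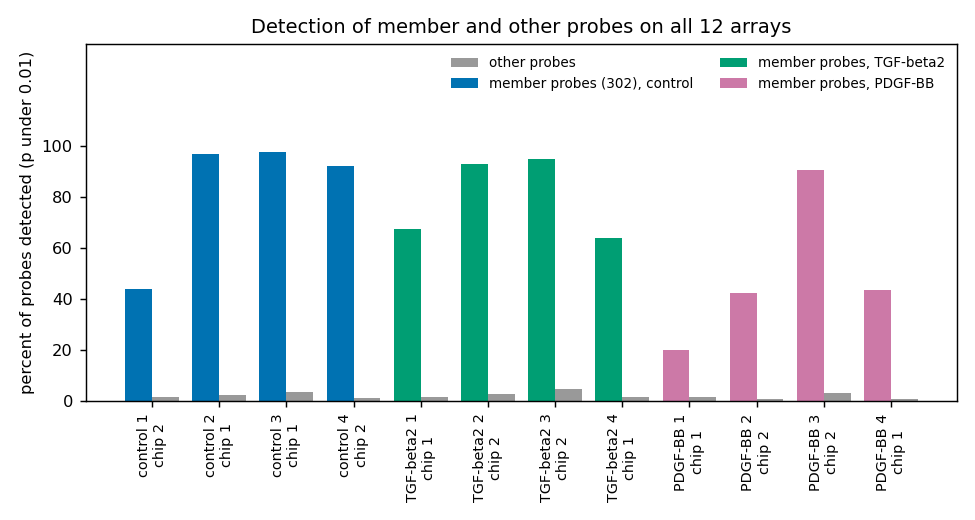
Percent of the 302 member probes (coloured bars) and of the 25394 other probes (grey bars) detected at p under 0.01 on each of the 12 arrays, with the chip under each sample. Members were chosen on the 4 control arrays, and on the 8 growth factor arrays 19.9% to 94.7% of them were detected beside 0.642% to 4.80% of the other probes.

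The members detected on the fewest growth factor arrays were Vmn2r81, Avpr1a, Rab31 and the dimmer E2f2 probe, each on 1. Avpr1a, a vasopressin receptor, gave 56.9, 100.8, 81.4 and 41.5 on the control arrays. Rab31, a GTPase of endosomal sorting, gave 53.8, 83.3, 128 and 17.7. Reep1, Narf, Olfr639 and an unnamed probe were detected on 2. With the exception of the E2f2 probe, these were detected on control sample 1 or lay just short of it, whereas most members on 3 arrays were missing there.

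Probes detected on a single control array were less often found again. They numbered 257 in control sample 1, or 55.5% of its detected probes, 246 (30.0%) in sample 2, 543 (47.1%) in sample 3 and 162 (30.7%) in sample 4. Of these, 143 (55.6%), 78 (31.7%), 227 (41.8%) and 70 (43.2%) were detected on none of the 8 growth factor arrays. The ribosomal genes among them numbered 0, 3, 4 and 0, and the olfactory and related receptor genes 18, 15, 19 and 5. Members and other probes had similar bead numbers, with medians of 41 and 40.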

How the data were processed

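The deposited scanner table holds, per the file headers, the mean bead intensity of 25696 probes on 12 arrays with a background subtracted by the authors, without normalisation between arrays, and a detection p-value in steps of 1 in 798. Bead numbers and standard errors were deposited beside them. A value table of 25697 probes holds intensity normalised by the authors with cubic splines and was used for comparison. The study's methods name BeadStudio, with its version, and the submitters' processing notes name GenomeStudio, with none. The authors deposited no log2 values. They were computed from the scanner intensity over 12 arrays (neqc, offset 16, limma 3.58.1, R 4.3.3), and the rest in Python 3.11.15. Of the probes, 23977 have 1 gene symbol, 0 have several and 1719 have none in the platform annotation, and 23961 matched RefSeq. All 40 gene lists are descriptive, and no set was tested. The members and lists were chosen with earlier results of these data known. Named genes are the 25 brightest, up to 4 per list, the cardiac and exosome markers, 3 probes on either side of the threshold, the 5 widest and 5 narrowest spreads and up to 8 members seen on the fewest growth factor arrays. Rpl14, Rpl24, Rpl35, Abi2, Dcn, Aif1, Cd14 and Prm1 were named after their values were seen, as were the printed starts. Precision is limited by the number of arrays, and the spread is between flasks. The alternatives were other detection rules, each control sample left out and other normalisations.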

Additional observations from a re-analysis of the deposited data

Results flagged for a closer look

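Within the 4 control samples, 4 of 35 values had 1 sample far from the others by Dixon's ratio, which chance gives in about 1 of 20 independent groups. These 35 values share the same 4 arrays, and the rule used some of them. That rate therefore does not apply to them, and the ratio served only as a flag. Control sample 1 had 132 member probes detected, and the other 3 had 278 to 295. The rule itself lowers this value, since members could be chosen without that array. Control sample 1 had 30.5% of the cytosolic ribosomal genes detected, and the others 67.8% to 72.9%. Rpl41 had a log2 intensity of 10.13 in control sample 2 and 10.50 in each of the others, equal because quantile normalisation gives the same value to the same rank. Rps19 had 8.99 in control sample 1 and 10.50 to 10.79 in the others.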

How the results depend on the processing

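The number of members depended on the detection rule. Among 25696 probes, it was 92 with detection on all 4 control arrays and 680 with at least 2. At a detection p-value under 0.05 it was 820, and under 0.005 it was 261. On all 4 arrays the share of ribosomal genes was 30.5%, and that of complex I and of olfactory and related receptors 0. Complexes II to V rose to 26.7% both with at least 2 arrays and at 0.05, and complex I to 10.3% and 12.8%. The receptors had 1.32% with at least 2 arrays, 1.90% at 0.05 and 0 at 0.005. The share of all named genes under these looser rules is not given here, so these rises are not set against it.

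Leaving out each control sample in turn, with detection on all of the remaining 3, gave 99 to 262 members, where 262 is the count without control sample 1. Ribosomal genes were 30.5% to 66.1% (66.1% without control sample 1), complex I 0 to 2.56%, complexes II to V 4.44% to 11.1%, translation factors 5.08% to 8.47%, sarcomere genes 3.13% throughout, calcium handling and junction genes 2.78% to 5.56%, and receptors 0 to 0.166%. The median correlation between arrays ran from 0.245 to 0.801, the last without control sample 1, and 21 to 25 of the 25 brightest genes were kept. Of the 25 brightest genes, 24 had a log2 intensity within 1 SD of the main value with normalisation over the 4 control arrays alone and with the authors' value table. Rpl23, whose SD is 0, moved from 13.21 to 13.51 and 13.63. The share of members with a terminal oligopyrimidine start was 7.69%, 4.81% without ribosomal genes and 7.43% over genes with 1 annotated start, a setting chosen after seeing the data. The counts of probes detected on 3 PDGF-BB arrays, and on a control array given the other 3, were also added after seeing the data. Protein features were not used here. No paired analysis was made, because no contrast between groups was tested. Members near the background on control sample 1 have only an upper bound there.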
